A study of Mus musculus with 22 samples.

Results

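The 8 genes of B cell activation and costimulation, Cd83, Samsn1, Cd69, Cd44, Cd86, Cd80, Icosl and Cd274, were followed in splenic immature B cells of the mouse. They were chosen by gene symbol and make up 8 of the 29294 gene identifiers in 3 deposited tables of normalized counts, each normalized on its own, so that groups were compared only within a table. The cells carry the sort label B220+CD93+, and the study compared them where gamma delta T cells were present, added or removed, in 22 libraries of total RNA. In culture, the B cells came from Tcrd-H2BeGFP mice that had received no toxin and were kept with gamma delta T cells (co-culture, 3 libraries) or without them (alone, 3 libraries). In spleen experiment 1, Tcrd-GDL mice had been dosed with diphtheria toxin by 2 injections with 48 h between them, at 15 ng for each g of body weight. They were analysed 8 days after the first injection (depleted, 3 libraries) and set against untreated mice of the same strain (3 libraries). Spleen experiment 2 held depleted Tcrd-GDL mice on the same schedule (2 libraries), Tcrd-H2BeGFP mice given the same toxin (toxin control, 3 libraries) and untreated Tcrd-GDL mice (5 libraries). Both alleles lie at the locus of the T cell receptor delta chain, and the GDL allele is known to add a diphtheria toxin receptor there, so that the toxin strikes cells that use this locus. The labels do not say whether the H2BeGFP allele does. The depleted and untreated groups share the Tcrd-GDL allele, whereas the toxin control differs from the depleted group in its allele and from the untreated group in both allele and toxin. Age is not given in the labels, and neither is the number of gamma delta T cells that remained after the toxin, nor whether a library is 1 mouse. P-values therefore measure the spread between these libraries, which may be technical.

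Resting B cells carry little CD86 and CD80 on their surface and acquire more after signals through the antigen receptor, CD40, innate sensors or cytokines. CD69 and CD83 are early surface markers of such activation. CD86 and CD80 bind CD28 and CTLA-4 on T cells, ICOSL binds ICOS, and CD274, also named PD-L1, binds the inhibitory receptor PD-1. CD44, a receptor for hyaluronan, marks activated and adherent lymphocytes, and SAMSN1, also named HACS1, is a cytoplasmic adaptor with SH3 and SAM domains that restrains antigen receptor signalling in B cells.

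The sorted identity was visible in the tables. Cd93, a marker used for the sort, lay between 601 and 2290 normalized counts over all libraries. That range spans 3 tables normalized apart, so it shows that the gene was read and not how its level compares. Reads per library ran from 17505909 to 28729574 in culture, 9794413 to 20343954 in experiment 1 and 22022330 to 36840455 in experiment 2. In experiment 1, depleted replicate 1 stood apart. The RNA gene Gm23935 took 28.7% of its reads, against 16.1% to 20.4% in the other libraries of that experiment. It had 3.06 normalized counts of Xist and 568.9 of the Y-linked Ddx3y, while the other 5 libraries had at least 9304 of Xist. Depleted replicate 2 also held some Ddx3y, well below replicate 1. Depleted replicate 3 had 1.68 of Ddx3y, and the untreated libraries had 0. In culture, replicate 3 of both groups had 265 normalized counts of Xist in co-culture and 228 alone, with 927 and 817 of Ddx3y, while replicates 1 and 2 of both groups had at least 13311 of Xist. That split is balanced between the culture groups and is not balanced in experiment 1.

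The upstream sequences of the adaptor and of the ligand on which the culture and spleen results turn are given first. Of the 8 genes, 5 had an entry among the RefSeq promoters (GRCm38.p6), namely Samsn1, Cd80, Icosl, Cd44 and Cd274. The windows searched were the 250 bases before the RefSeq start. The stretches printed here end where the earliest GENCODE M21 exon begins, 44 bases before the RefSeq start for Samsn1 and 66 bases before it for Icosl. Samsn1 is read from the minus strand at chr16:75909311-75909516, and the capitals mark the letters GAGGAA, a core that the B cell factor PU.1 is known to bind. Icosl is read from the plus strand at chr10:78069118-78069301, and the capitals mark a match to the NF-kB consensus on the opposite strand.
Samsn1: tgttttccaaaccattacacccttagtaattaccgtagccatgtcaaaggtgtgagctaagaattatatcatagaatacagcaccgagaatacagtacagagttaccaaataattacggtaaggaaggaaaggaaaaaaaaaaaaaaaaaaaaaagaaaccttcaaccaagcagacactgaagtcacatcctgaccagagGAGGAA
Icosl: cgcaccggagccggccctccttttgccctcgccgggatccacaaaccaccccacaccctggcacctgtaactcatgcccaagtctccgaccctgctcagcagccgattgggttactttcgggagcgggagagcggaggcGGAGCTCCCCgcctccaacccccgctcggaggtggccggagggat

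In the Samsn1 window GAGGAA lay 50 to 45 bases before the start, and its reverse complement lay 28 to 23 bases before it, in the stretch not printed. Of 32851 RefSeq promoters, 23.25% hold these letters on either strand within 250 bases. The Samsn1 window held none of the NF-kB consensus, TTCNNNNGAA of STAT6, TGANTCA of AP-1 or TATAAA. This start serves the short transcripts of the gene, Samsn1-201, Samsn1-203 and Samsn1-204, and the gene itself reaches much further upstream, from 75858793 to 76022281 on chromosome 16. The Icosl window is rich in G and C (68.8%, against 38.4% for Samsn1), and its NF-kB match lay 111 to 102 bases before the start. A match of this kind is found in 7.251% of promoters. Matches were also found in windows of members not called in culture. The Cd44 window held TTCNNNNGAA, found in 5.854% of promoters, and GAGGAA on the opposite strand. The Cd80 window held TGANTCA, found in 6.749% of promoters, and the Cd274 window held none of these patterns. These are descriptions of letters and not of bound sites.

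Co-culture with gamma delta T cells went with much more RNA of 2 of the 8 genes. Samsn1 was 7.13-fold and Cd83 4.49-fold higher in co-culture than alone, and Cd69 was 1.71-fold higher. The costimulatory ligands Cd86 and Icosl did not pass the test, and the coinhibitory ligand Cd274 and the adhesion receptor Cd44 were lower in every co-culture library without passing it. Of the 7 tested members, 3 were called at an adjusted p under 0.05 (limma, Benjamini-Hochberg over 12386 genes), all of them higher, where 2.16% of all tested genes were called and 1.1% were called higher. The groups did not overlap in 6 of the 7, of which 4 were higher and 2 lower in co-culture, against 18.4% of all tested genes. The members were chosen with earlier results of these data known, so nothing about the set is read from these counts.

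Samsn1 had 5573, 4579 and 4552 normalized counts in the 3 co-culture libraries, against 697, 716 and 639 alone. All co-culture libraries were far above all libraries of cells alone. The log2 difference was 2.83 ± 0.12 (SE, n = 3 each; adjusted p = 1.11e-07, limma), with a fold interval of 5.94 to 8.57 at 95%. No gene in the table had a smaller p, and the fold change ranked 6th from the top. The co-culture libraries of Samsn1 varied by 11.9% (CV), against a counting error of 1.32%, so that their spread was larger than counting error alone gives.

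Cd83, a membrane glycoprotein that keeps MHC class II and CD86 on the surface of antigen-presenting cells by countering the ubiquitin ligase MARCH1, had 7633, 7377 and 7160 normalized counts in co-culture, against 1521, 1733 and 1693 alone. The libraries of each group lay close together and the groups were far apart. Its log2 difference was 2.17 ± 0.11 (SE, n = 3 each; adjusted p = 4.5e-07, limma), ranking 12th by fold and 4th by p. When any of the 6 libraries was left out, the log2 difference stayed between 2.11 and 2.20 for Cd83 and between 2.74 and 2.88 for Samsn1.

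Cd69, a lectin-like receptor that binds S1PR1 and so holds lymphocytes in tissue, had 1107, 1024 and 743.9 normalized counts in co-culture, against 614, 518 and 533 alone. Co-culture replicate 3 was the lowest of its group and still above every library of cells alone. The log2 difference was 0.77 ± 0.15 (SE, n = 3 each; adjusted p = 0.0218, limma). This call was lost when any of the other 5 libraries was left out, with adjusted p (limma) between 0.0648 and 0.128, and reached 4.05e-05 without co-culture replicate 3.

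**Figure D1:**
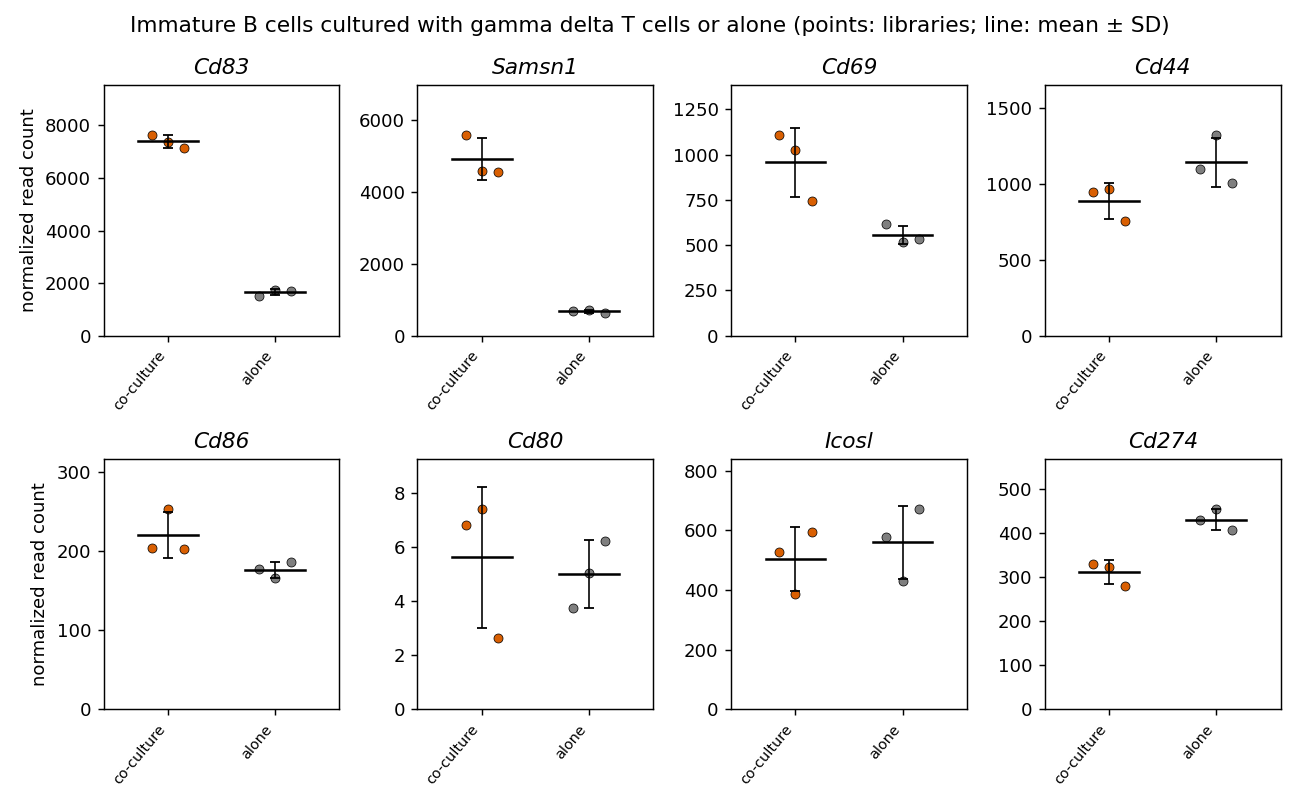
Normalized counts of the 8 genes in the culture libraries, co-culture on the left and cells alone on the right of each panel, with 1 point per library and a line for the mean ± SD (n = 3 each). Samsn1 and Cd83 separate the groups widely, at means of 4901 and 7390 in co-culture against 684 and 1649 alone, and Cd80 stays under 10 in every library.

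Among the T cell ligands, Cd86 had 203, 253 and 203 normalized counts in co-culture and 177, 166 and 186 alone. The groups were just apart, and the log2 difference of 0.31 ± 0.15 did not pass (SE, n = 3 each; adjusted p = 0.412, limma). Cd80, the other ligand of CD28, was near the floor of detection, at 6.80, 7.40 and 2.63 normalized counts in co-culture and 3.74, 5.02 and 6.23 alone. These values rest on 3 to 10 reads per library, fell short of the mean of 10 needed for a test, and show no order of the groups. Icosl had 528, 389 and 597 normalized counts in co-culture and 579, 429 and 673 alone, with overlapping groups. Its log2 difference of −0.15 had a 95% interval of −0.56 to 0.26, which leaves room for a change of moderate size in either direction.

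Cd274, the ligand of PD-1, had 329.6, 323 and 279.8 normalized counts in co-culture and 429, 455 and 406 alone. Every co-culture library lay below every library of cells alone. The log2 difference of −0.47 ± 0.13 missed the threshold (SE, n = 3 each; adjusted p = 0.0899, limma). Cd274 shares 511 exonic bases with an annotated antisense gene, AC119228.1, and whether the reads were counted by strand is not given in the sources used here, so its counts are uncertain to that extent. Cd44 had 946, 967 and 752 normalized counts in co-culture and 1096, 1319 and 1006 alone, again with every co-culture library below. Its log2 difference was −0.36 ± 0.14 (SE, n = 3 each; adjusted p = 0.287, limma).

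Markers of other cells were read in the same libraries. The summed level of 8 gamma delta T cell genes, 7 of them in the table, lay between 0.740 and 6.14 normalized counts in co-culture and between 0.935 and 5.86 alone, and Tcrg-C1, Tcrg-C4, Trdv4 and Il17a were at 0 in all 6 libraries. The general T cell marker Cd3e had 44.4 to 57.4 normalized counts in co-culture and 41.9 to 51.4 alone. The summed level of all 13 T cell genes, which Cd2 and Lck lead, was 1836 to 2154 in co-culture and 2314 to 2459 alone, below in all co-culture libraries. Among them Lck was higher in co-culture (log2 difference 0.71, adjusted p = 0.0297, limma) and Cd5 lower (−0.95, adjusted p = 0.0386). The 6 alpha beta T cell genes summed to 133 to 150 in co-culture and 92.1 to 149 alone, with overlapping groups. Their log2 differences ran from −0.19 to 1.18 with a median of 0.55, and none was called. The 7 B cell genes summed to 53533 to 58900 in co-culture and 54172 to 60188 alone. Of the 4 plasma cell genes tested, 1 fell and 1 rose. Sdc1, the surface proteoglycan CD138, had a mean of 142 ± 32.8 normalized counts in co-culture and 484 ± 58.9 alone (SD, n = 3 each; log2 difference −1.78, adjusted p = 0.000107, limma). Xbp1, a transcription factor of secretory cells, had 1737 ± 126 in co-culture and 825 ± 54.5 alone (log2 difference 1.07, adjusted p = 0.000246). The part of other cells in the results on Samsn1, Cd83 and Cd69 was not tested beyond these values. In bulk RNA, fewer cells of a type and less RNA per cell cannot be told apart.

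Genes of the same pathways that were not among the 8 were called in both directions in culture, where 2.16% of all tested genes were called and 1.1% called higher. Of 17 tested B cell activation surface genes, 3 rose and 2 fell in co-culture, and their median log2 difference was −0.017, against −0.0050 over all tested genes. Fcer2a, the low-affinity IgE receptor CD23, had a mean of 2473 ± 322 normalized counts in co-culture and 836 ± 33.3 alone (SD, n = 3 each), a log2 difference of 1.56 (adjusted p = 2.03e-05, limma). Slc7a5, the light chain of the CD98 amino acid transporter, rose by 0.69 (adjusted p = 0.00776, limma). Of 15 tested partners and regulators of the 8 genes, Rel, an NF-kB subunit of activated B cells, rose by 0.50 (adjusted p = 0.0488), and Pirb, an inhibitory receptor, fell by 0.77 (adjusted p = 0.0127). The other 13 did not pass, with a median log2 difference over all 15 of 0.053.
Of 11 tested further ligands and receptors of antigen-presenting cells, none rose. Cd24a, a small surface glycoprotein of immature B cells, fell by 0.79 (adjusted p = 0.0233, limma), with a median of −0.21 over the 11. None of the 5 tested counter-receptors carried by T cells passed the test, with a median of −0.51.

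In spleen experiment 1, none of the 7 tested members was called between depleted and untreated mice. No gene of the table was: 0% of 11701 passed with limma, and none with edgeR, although 1033 had an unadjusted p under 0.05 and DESeq2 called 27. Among the members, 2 had an unadjusted p under 0.05, Cd83 on the lower and Icosl on the higher side in depleted mice, and DESeq2 and edgeR called none. The groups did not overlap in these same 2, against 15.2% of tested genes.

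Cd83 had 1494, 1245 and 1413 normalized counts in depleted mice, against 1939, 1768 and 1827 in untreated mice. All depleted libraries were below all untreated ones, by a log2 difference of −0.42 ± 0.10 (SE, n = 3 each; adjusted p = 0.415, limma). Samsn1 had 528, 348 and 399 normalized counts in depleted mice and 490, 503 and 603 in untreated mice. The groups overlapped through depleted replicate 1, and the log2 difference was −0.34 ± 0.16 (adjusted p = 0.576, limma). Icosl had 927, 1313 and 1273 normalized counts in depleted mice and 845, 661 and 854 in untreated mice. Every depleted library was above every untreated one, depleted replicate 1 by the least, and the log2 difference was 0.57 ± 0.15 (adjusted p = 0.443, limma).

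Cd274 had 424, 379 and 328 normalized counts in depleted mice and 339, 317 and 236 in untreated mice, a log2 difference of 0.35 ± 0.16 with overlapping groups (SE, n = 3 each; adjusted p = 0.575, limma). Cd86, Cd69 and Cd44 differed by −0.046, −0.11 and −0.11 on the log2 scale, and none had groups apart. Cd80 had 12.2, 9.47 and 3.37 normalized counts in depleted mice and 6.56, 3.63 and 1.70 in untreated mice, from 2 to 11 reads, and was not tested.

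Leaving out depleted replicate 1, the library that stood apart, changed these results. With it left out 1092 genes were called, 477 higher and 615 lower, where 0 of 11701 were called with all 6 libraries. Among these were 3 members, and nothing about the set is read from this count. Cd83 then differed by −0.47 (adjusted p = 0.00178), Samsn1 by −0.50 (adjusted p = 0.01) and Icosl by 0.73 (adjusted p = 0.000267, all by limma with 2 depleted and 3 untreated libraries). Leaving out any other library called no member. The depleted libraries left without replicate 1 include replicate 2, which held some Ddx3y. The pathway lists had no called gene in the comparison of all 6 libraries, where no gene of the table was called.

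Marker levels of other cells were read beside these values in experiment 1. None of the tested markers was called, but no gene of the table was, so this cannot tell whether other cells differed. The 13 T cell genes summed to 1959 to 2495 normalized counts in depleted mice and 2536 to 2722 in untreated mice, below in all depleted libraries. Of these, 9 were tested, with log2 differences from −1.35 to 0.038 and a median of −0.47. The 6 alpha beta T cell genes summed to 10.7 to 77.5 in depleted mice and 27.4 to 67.8 in untreated mice, with overlapping groups. Only 2 of the 6 were tested, at −1.25 and −0.50. The gamma delta T cell list, of which 4 of 8 genes were in the table, summed to 0.842 to 6.32 in depleted mice and 0 to 2.98 in untreated mice, with Tcrg-C1 at 0 in all 6. The 9 dendritic cell genes summed to 88.7 to 103.6 in depleted mice and 110.9 to 126 in untreated mice, but only 2 of them were tested. Those 2 differed in opposite directions, by −0.28 and 0.25 on the log2 scale. The 8 macrophage and monocyte genes in the table summed to 268 to 537 in depleted mice and 307 to 814 in untreated mice. Of these, 7 were tested, all lower in depleted mice, with a median log2 difference of −0.38. The part of other cells in the values of Cd83 and Icosl was not tested.

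In spleen experiment 2, Icosl was the member called in depleted mice against both other groups. It was 1.50-fold higher than in untreated mice and 1.56-fold higher than in the toxin control. Cd69 was 1.70-fold higher in depleted mice than in the toxin control and close to its level in untreated mice, and it was lower in the toxin control than in untreated mice. Cd274 was lower in both depleted libraries than in all libraries of the other groups without passing the test. The 3 groups were fitted together and each comparison shares a group with the other 2, so their values are given side by side and not as independent results.

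Against untreated mice, 1 of 8 members was called and it was higher, where 0.299% of 13364 tested genes were called and 0.127% called higher. The groups did not overlap in 2 members, against 12.3% of tested genes. Against the toxin control 2 members were called, both higher, where 9.07% of genes were called and 4.58% called higher, and groups were apart in 4 members, against 42.1% of genes. Between the toxin control and untreated mice 1 member was called, and it was lower, where 15.7% of genes were called and 8.34% called lower. Groups were apart there in 2 members, against 23.4% of genes. With 8 members, nothing about the set is read from these counts.

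Icosl had 2802 and 2526 normalized counts in depleted mice, against 1739, 1636 and 1746 in the toxin control and 1674, 1536, 1880, 1973 and 1842 in untreated mice. Both depleted libraries were above all 8 others. The log2 difference was 0.58 ± 0.10 against untreated mice (SE, n = 2 and 5; adjusted p = 0.0254, limma) and 0.64 ± 0.11 against the toxin control (n = 2 and 3; adjusted p = 0.00529). Toxin control and untreated mice differed by −0.056 ± 0.090 (adjusted p = 0.706), with an interval of −0.25 to 0.13 at 95%. With any 1 library left out, the log2 difference stayed between 0.51 and 0.66 against untreated mice and between 0.57 and 0.72 against the toxin control, while the calls changed. The call against untreated mice was lost without depleted replicate 4 (adjusted p = 0.498), untreated replicate 4 (0.0858) or untreated replicate 5 (0.0512), and in a fit of these 2 groups alone (0.0769), and the call against the toxin control was lost without depleted replicate 4 (0.124, all limma). Without that library 1 depleted library is left, and its spread is taken from the other groups.

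The difference in Icosl between depleted and untreated mice was of like size in both spleen experiments, whose libraries are separate. It was 0.57 in experiment 1 and 0.58 in experiment 2, and the difference between these values was −0.019 ± 0.19 (SE, limma interaction term, adjusted p = 1). Without depleted replicate 1 of experiment 1 it was 0.14 ± 0.16 (adjusted p = 0.858). In culture, where gamma delta T cells were added, Icosl did not separate the groups.

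Cd69 had 1466 and 912 normalized counts in depleted mice, 738, 641 and 662 in the toxin control, and 1123, 1336, 1071, 1269 and 986 in untreated mice. The 2 depleted libraries lay on either side of all untreated ones and above the toxin control, whose 3 libraries were the lowest of the 10. The log2 difference between depleted mice and the toxin control was 0.77 ± 0.17 (SE, n = 2 and 3; adjusted p = 0.0149, limma), and that between the toxin control and untreated mice was −0.76 ± 0.14 (n = 3 and 5; adjusted p = 0.00462). Between depleted and untreated mice it was 0.0079 ± 0.16 (n = 2 and 5; adjusted p = 0.992). The first of these calls was lost without depleted replicate 4 (adjusted p = 0.345) or toxin control replicate 2 (0.0615), and the second held without any 1 library.

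Cd274 had 559 and 563 normalized counts in depleted mice, 702, 756 and 705 in the toxin control, and 749.7, 884, 752, 779 and 761 in untreated mice. Both depleted libraries were below all others. The log2 difference was −0.48 ± 0.10 against untreated mice (SE, n = 2 and 5; adjusted p = 0.0684, limma) and −0.36 ± 0.11 against the toxin control (n = 2 and 3; adjusted p = 0.0571). DESeq2 on the recovered reads called both, with adjusted p of 0.0062 and 0.0359. The direction was the opposite of experiment 1, where depleted mice had the higher mean. The difference between the experiments, 0.83 ± 0.18 (limma interaction term, unadjusted p = 0.000223), was not called after adjustment over 11687 genes (adjusted p = 0.867). For Cd83 it was −0.50 ± 0.14 (unadjusted p = 0.0017, adjusted p = 1). Without depleted replicate 1 of experiment 1 these differences were 0.74 ± 0.18 for Cd274 and −0.55 ± 0.14 for Cd83, each with an adjusted p of 0.28. No gene was called in this test with or without that library, and 474 had an unadjusted p under 0.05 with it.

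**Figure D2:**
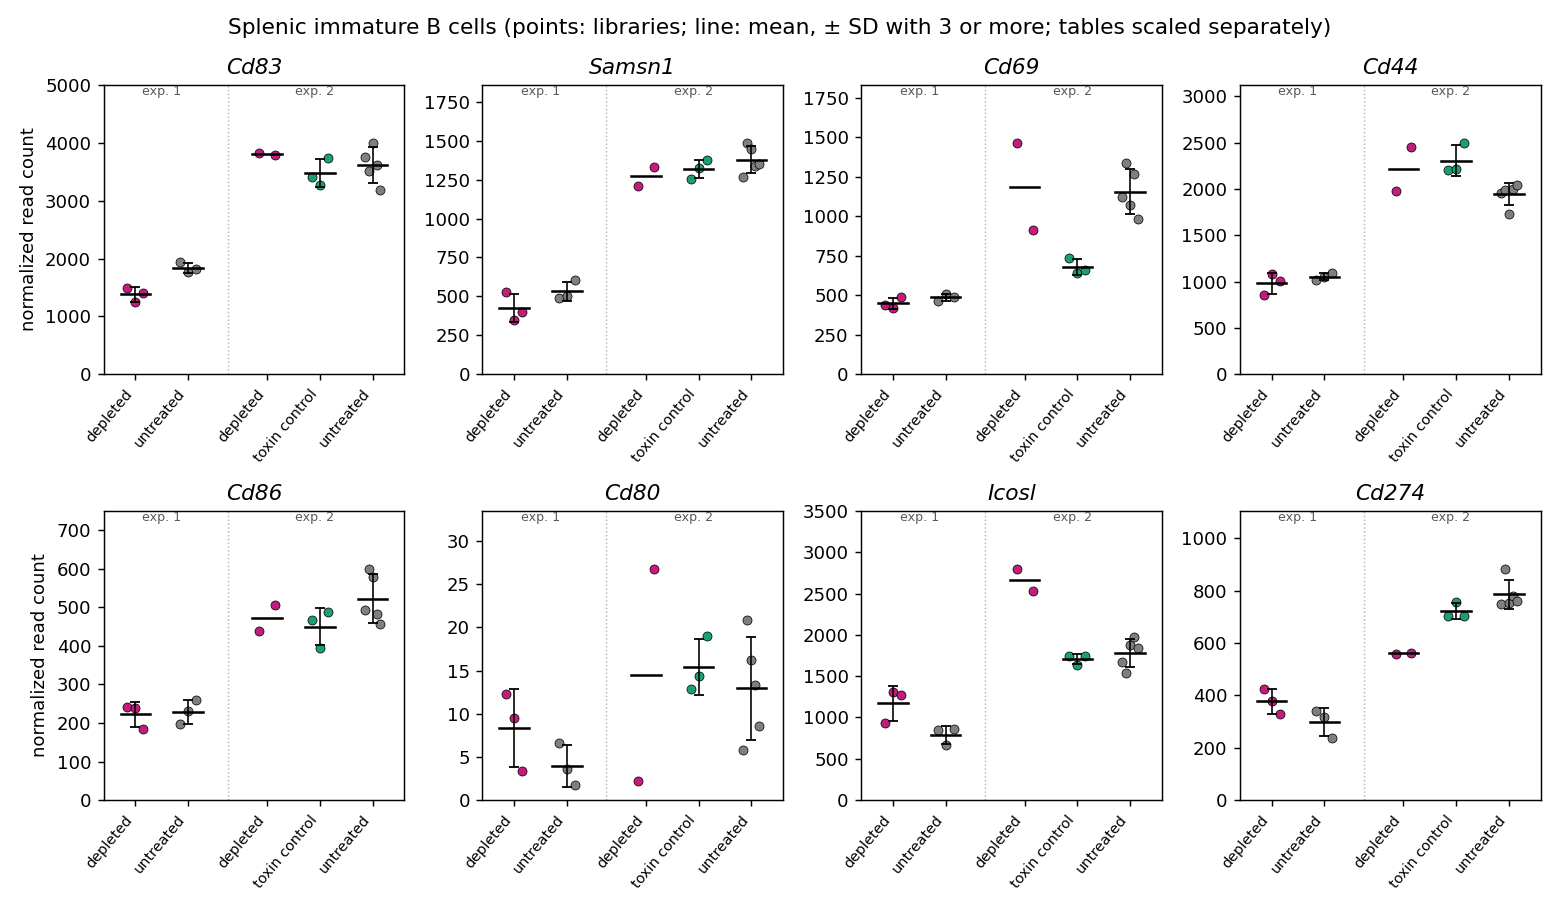
Normalized counts of the 8 genes in both spleen experiments, with 1 point per library and a line for the mean (with ± SD in groups of 3 or more libraries). In experiment 2 both depleted libraries of Icosl, at 2802 and 2526, are above all others, and those of Cd274, at 559 and 563, are below all others, while the toxin control is lowest for Cd69.

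Cd83 and Samsn1, which differed most in culture, differed little in experiment 2. Cd83 had 3829 and 3788 normalized counts in depleted mice, 3406, 3276 and 3746 in the toxin control, and 3765, 3521, 4002, 3621 and 3180 in untreated mice. Its log2 difference against untreated mice was 0.078, with an interval of −0.13 to 0.28 at 95%. Samsn1 had 1208 and 1332 normalized counts in depleted mice, 1254, 1325 and 1373 in the toxin control, and 1269, 1486, 1443, 1336 and 1349 in untreated mice. Its log2 difference against untreated mice was −0.12, with an interval of −0.32 to 0.087. Differences of the size seen in culture lie outside both intervals.

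Cd44 had 1975 and 2451 normalized counts in depleted mice, 2209, 2212 and 2498 in the toxin control, and 1958, 1990, 1735, 2002 and 2042 in untreated mice. All toxin control libraries were above all untreated ones, by 0.25 ± 0.090 on the log2 scale (SE, n = 3 and 5; adjusted p = 0.075, limma). The call was made when only these 2 groups were fitted (adjusted p = 0.0412). Cd86 had 439 and 506 normalized counts in depleted mice, 467, 395 and 488 in the toxin control, and 493, 601, 580, 482 and 458 in untreated mice, with all groups overlapping. Cd80 was tested here, since its mean was above 10, and had 2.19 and 26.8 normalized counts in depleted mice, 12.8, 14.3 and 19.0 in the toxin control, and 5.81, 20.8, 16.2, 13.4 and 8.61 in untreated mice. These rest on 2 to 27 reads, and the 2 depleted libraries are the lowest and the highest of all 10.

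**Figure D3:**
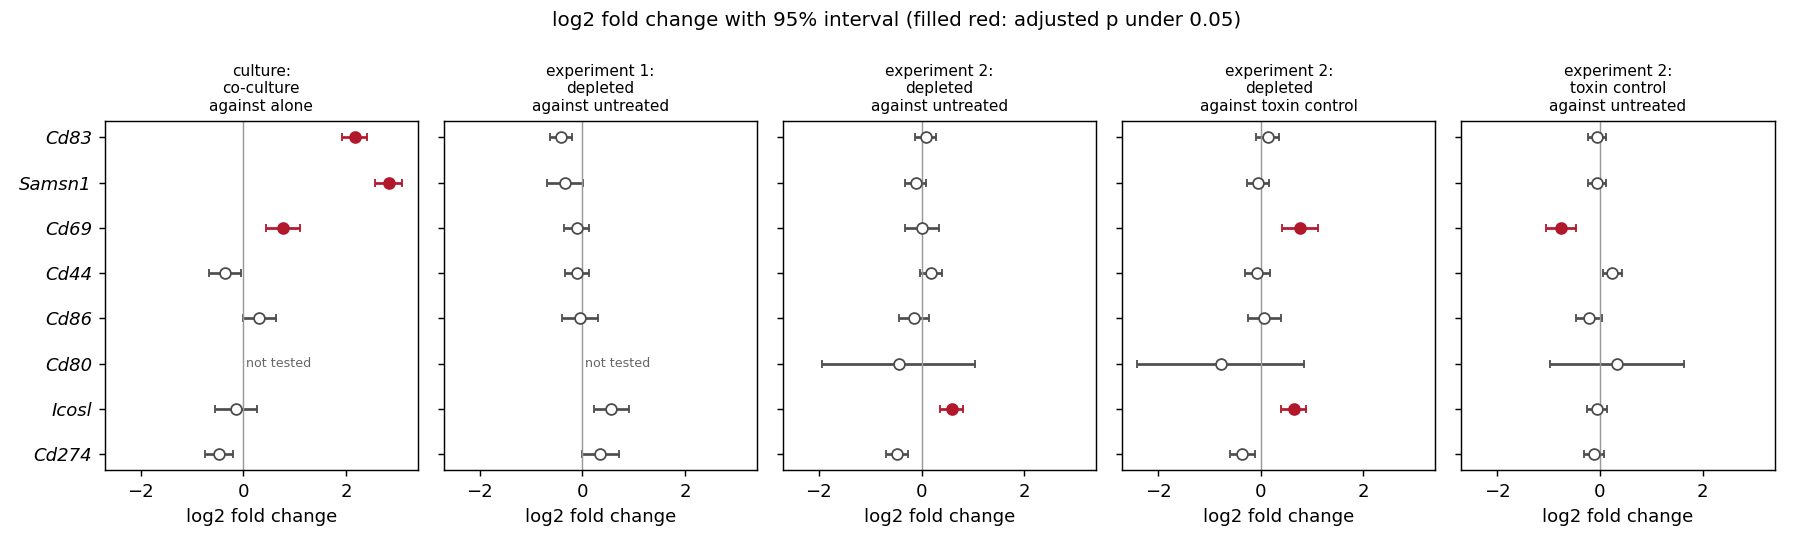
Log2 difference (horizontal axis) of each tested gene in the 5 comparisons, 1 panel each, with its 95% interval from limma. Filled points passed an adjusted p under 0.05. Samsn1 and Cd83 stand at 2.83 and 2.17 in culture, Icosl lies at 0.57, 0.58 and 0.64 in the 3 comparisons of depleted mice, and Cd69 is the only member called between toxin control and untreated mice.

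Other genes of the pathway were counted in experiment 2 against the shares of all genes called, 0.299% for depleted against untreated mice, 9.07% for depleted mice against the toxin control and 15.7% for the toxin control against untreated mice. Between depleted and untreated mice, none of 13 ligands and receptors, 4 counter-receptors, 18 surface genes and 16 partners was called. Between depleted mice and the toxin control, 5 of 18 activation surface genes were called, 1 higher and 4 lower, among them Il2ra (−1.92, adjusted p = 0.000644, limma), the alpha chain of the interleukin-2 receptor, and the death receptor Fas (−1.63, adjusted p = 0.00548). Of 16 partners and regulators, 1 rose and 2 fell. Nfkb1, an NF-kB subunit, was lower (−0.49, adjusted p = 0.0204), and Cmtm6, which stabilises PD-L1 at the cell surface, was higher (0.31, adjusted p = 0.0439).
Of 13 further ligands and receptors, Cd48 was higher (0.39, adjusted p = 0.0412), and Cd72 (−0.39, adjusted p = 0.0442) and Cd24a (−0.54, adjusted p = 0.0473) were lower. Of 4 tested counter-receptors, Cd28, the T cell receptor for CD86 and CD80, was lower at 28.7 ± 20.4 normalized counts in depleted mice and 94.7 ± 33.4 in the toxin control (SD, n = 2 and 3; log2 difference −1.81, adjusted p = 0.0409, limma).
Between the toxin control and untreated mice, Il2ra (0.88, adjusted p = 0.0106), Fas (0.80, adjusted p = 0.0317), the B cell receptor of the Toll-like family Cd180 (0.43, adjusted p = 0.0124), Nfkb1 (0.44, adjusted p = 0.00801) and Stat3 (0.37, adjusted p = 0.0103) were higher, and Cd48 was lower (−0.50, adjusted p = 0.00462, limma). Of the lists, 4 of 18 surface genes rose and 1 fell, 3 of 16 partners rose, 1 of 13 ligands fell and none of 4 counter-receptors was called.

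Markers of other cells differed between the groups of experiment 2. The 13 T cell genes summed to 5922 to 6225 normalized counts in depleted mice, 6902 to 7620 in the toxin control and 5892 to 6836 in untreated mice, so the toxin control was above all others. Cd2 makes up most of that sum, at means of 5207 in depleted mice, 5345 in the toxin control and 5394 in untreated mice, and the other genes differed more. The median log2 difference of the 13 genes was −1.44 for depleted mice against the toxin control, with 4 called lower, and 1.17 for the toxin control against untreated mice, with 6 called higher. The 6 alpha beta T cell genes had medians of −1.06 with none called and of 1.22 with 2 called higher. These move with the values of Il2ra, Fas and Cd28, and their part in them was not tested. Cd93, used for the sort, had a mean of 1141 in depleted mice, 2082 in the toxin control and 1189 in untreated mice. It was higher in the toxin control than in untreated mice (log2 difference 0.81, adjusted p = 0.00232, limma). The 7 B cell genes summed to 119843 to 130875 in depleted mice and 138246 to 140974 in the toxin control. In untreated mice they summed to 130181 to 152799. Against the toxin control, 2 of these 7 were called lower in depleted mice, with a median log2 difference of −0.17. So were 2 of 7 tested macrophage and monocyte genes (median 0.20) and 1 of 6 tested NK cell genes (median −1.19). The 9 dendritic cell genes summed to 538.8 to 896 in depleted mice, 359 to 450.3 in the toxin control and 331 to 660.2 in untreated mice, and Siglech, a receptor of plasmacytoid dendritic cells, had 115 to 274 in depleted mice, 44.4 to 62.9 in the toxin control and 17.5 to 157 in untreated mice. The gamma delta T cell list, of which 6 of 8 genes were in the table, summed to 3.50 to 5.48 in depleted mice, 3.07 to 14.0 in the toxin control and 3.32 to 16.4 in untreated mice, with Tcrg-C1 at 0 in all depleted and untreated libraries. The part of these cells in the values of Icosl, Cd69 and Cd274 was not tested.

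Per kb of exon, Cd83 had the highest and Cd80 the lowest level of the 8 genes in every group. Cd83 had 2873 ± 92.1 normalized counts per kb in co-culture and 641 ± 43.8 alone (SD, n = 3 each), and Cd80 had 1.52 ± 0.702 in co-culture and 1.35 ± 0.336 alone. Samsn1 had rank 2 in co-culture, at 993 ± 118 per kb, and rank 3 alone, at 139 ± 8.13, where its range overlapped that of Icosl, the next in order. The ranges of Cd69, Cd44, Icosl and Cd274, which filled the places between Samsn1 and Cd86 in co-culture, overlapped from each to the next. In experiment 2 Icosl had rank 2 in every group, at 577 ± 42.3 per kb in depleted mice, 369 ± 13.4 in the toxin control and 386 ± 37.8 in untreated mice (SD, n = 2, 3 and 5). In the toxin control its range overlapped that of Cd44, the next in order. In experiment 1 Icosl also had rank 2, at 253 ± 45.9 per kb in depleted mice, above the range of Cd44, and 170 ± 23.6 in untreated mice, where it overlapped Cd44.

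**Figure D4:**
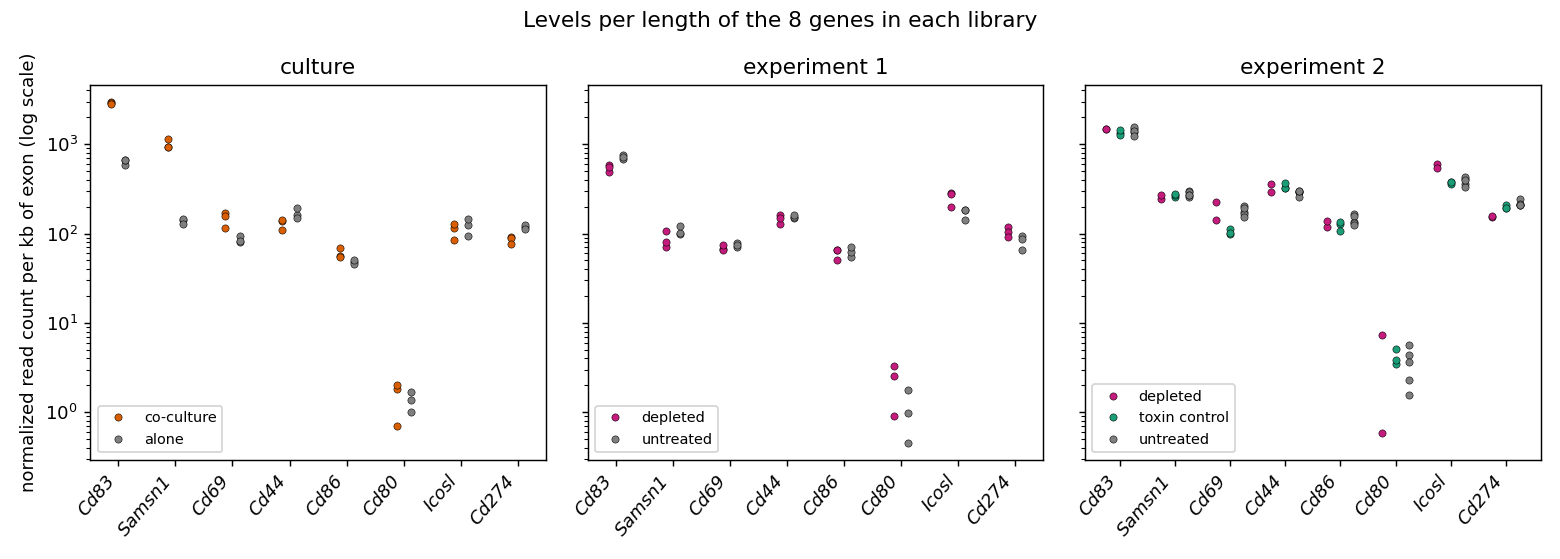
Normalized counts per kb of exon (vertical axis, log scale) of each gene, with 1 point per library and 1 panel per table. Levels are comparable between groups only within a table. Cd83 is the highest and Cd80 the lowest in all 7 groups, and Samsn1 has rank 2 in co-culture, at a mean of 993, and rank 3 in cells alone, at 139.

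Likeness of pattern was described over the 22 libraries, as the root mean square difference on the log2 scale after each gene's mean in each table was taken off, among 10369 genes. It is a description, and the culture libraries weigh most in it for genes that differ most there. Closest to Cd83 were Il4i1 (0.19), Rab35 (0.24) and Klhdc2 (0.25), where the median gene lay at 0.62. Closest to Samsn1 were Serpinb6b (0.21), St7 (0.27) and again Il4i1 (0.31), with a median of 0.79. In culture these genes differed the same way, with Il4i1, a secreted amino acid oxidase, at 5448 ± 184 normalized counts in co-culture and 1556 ± 158 alone, and St7 at 899 ± 90.5 in co-culture and 94.7 ± 11.4 alone (SD, n = 3 each). Closest to Icosl were Lmo2 (0.16), Anapc16 (0.18) and Gimap5 (0.18), with a median of 0.36. Lmo2, a transcriptional adaptor of blood cells, had means of 2758 normalized counts in depleted mice, 1832 in the toxin control and 2032 in untreated mice of experiment 2, and 1301 in depleted and 974 in untreated mice of experiment 1. Among the 3 closest genes of each other member were P2ry10 (0.18) for Cd69, Trnau1ap (0.11) for Cd86, Mbnl1 (0.089) for Cd44 and Ptp4a3 (0.15) for Cd274.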

How the data were processed

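Deposited were 3 tables of normalized counts, a signal per gene and library, for culture and for each of the 2 spleen experiments. The authors' scaling method, the read counter and its strand setting were not given in the sources used here. Per the labels' protocols, RNA came from the RNeasy Plus Micro kit and went into Takara stranded total RNA libraries. The submitters' processing notes name bcl2fastq, STAR 2.5.2b and mm10. The deposited values divide into whole reads (100% within 0.01), from which depths and counting errors were taken.

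Genes with a mean of 10 or more were tested on log2(value + 1) by limma 3.58.1 in R 4.3.3 with a variance trend. Log2 differences are on that scale, which understates low genes. P-values were adjusted by Benjamini-Hochberg over all tested genes and called under 0.05. Experiment 2 was fitted with its 3 groups together, and no fit had a covariate. Scripts were tested on simulated data. Alternatives were a pseudocount of 8, no filter, quantile normalization, edgeR 4.0.16 and DESeq2 1.42.0 on the recovered reads, each library left out, a replicate block and, for experiment 2, a fit of the 2 groups alone. The interaction between spleen experiments was added after seeing the data.

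The text names the 8 members, up to 3 called genes per list and comparison by smallest p, and 3 genes most like each member, of which some are not reported here. Members and lists were chosen with earlier results of these data known. Gene models came from GENCODE M21 (GRCm38).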

Additional observations from a re-analysis of the deposited data

Results flagged for a closer look

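The untreated mice of experiment 2 were the group large enough to be examined, for each of the 8 genes. In 2 of the 8 genes a library lay far from the rest, and chance marks about 1 in 20. Untreated replicate 5 had 884.06 normalized counts of Cd274, above the other 4 untreated libraries at 749.7 to 779. Untreated replicate 6 had 1734.89 normalized counts of Cd44, below the other 4 at 1958 to 2042. Both libraries lie on the side that widens the difference of their group from the one it was set against, Cd274 from depleted mice and Cd44 from the toxin control. The groups did not overlap with or without these libraries.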

How the results depend on the processing

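Of 234 member values under alternatives other than leaving out a library, 228 kept their direction and side of the threshold, and of 244 values with 1 library left out, 216 did. Outside leaving out libraries, 2 directions turned between depleted and untreated mice of experiment 2, both far from any call. Cd80 was at 0.18 with edgeR (adjusted p = 0.963), and Cd69 at −0.083 with a replicate block (adjusted p = 1). The number of members called in that comparison was 2 with DESeq2 and 0 when the 2 groups were fitted alone. It was 2 between toxin control and untreated mice when fitted alone.

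Leaving out 1 library moved the number of called members between 0 and 3 in experiment 1, between 0 and 1 for depleted against untreated mice of experiment 2, and between 0 and 3 for depleted mice against the toxin control. Directions turned in Icosl in culture (−0.33 to 0.027), Cd86 in experiment 1 (−0.15 to 0.082), Cd69 (−0.33 to 0.35) and Cd80 (−2.01 to 1.11) between depleted and untreated mice of experiment 2, and, against the toxin control, Samsn1 (−0.12 to 0.017), Cd86 (−0.032 to 0.17), Cd80 (−2.34 to 0.78) and Cd44 (−0.22 to 0.090). Cd80 was called without depleted replicate 5 (−2.34, adjusted p = 0.0419), from 2 reads in the lone depleted library, whose spread the fit takes from the other groups. The causes were not tested.

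Over all genes, 267 were called in culture, 448 with the block and 103 to 678 with 1 library left out. In experiment 1 these were 0, with 27 by DESeq2, 2 without a filter and 0 to 1092 with 1 library left out. For depleted against untreated mice of experiment 2 they were 40, with 138 by DESeq2, 153 with the block, 5 for the 2 groups alone and 0 to 579 with 1 library left out. The share called higher was 42.5%, against 70.6% with edgeR and 55.1% with DESeq2. Against the toxin control 1212 were called, 725 without a filter, 442 for the 2 groups alone and 42 to 2712 with 1 library left out. Between toxin control and untreated mice 2093 were called, and 196 to 2996 with 1 library left out.

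Same-numbered libraries deviated together weakly (correlations of 0.2, −0.037 and 0.23 in culture, −0.0216, −0.0373 and 0.0457 in experiment 1, −0.0697 and −0.105 in experiment 2), so the numbers were not taken to pair them. In culture replicates 1 and 3 correlated best with their own number and replicate 2 did not, and in the spleen experiments no library did. Replicate 3 had little Xist in both culture groups. The labels do not say whether a number marks shared mice or days. With the replicate block the members called in culture and experiment 1 numbered 3 and 0, and Cd69 in culture had an adjusted p of 0.00137. Depth limits Cd80, at 2 to 27 reads per library.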
